A study of Mus musculus with 4 samples.

Results

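Adipocyte-rich spots of mouse lung sections were defined by the transcripts of 3 fat cell genes. Adipoq (chr16:23146536-23158028, GRCm38) encodes the hormone adiponectin, Plin1 (chr7:79720218-79732903) encodes the perilipin that coats the large lipid droplet of fat cells, and Cidec (chr6:113424634-113435760) encodes a protein that fuses lipid droplets. Among spots with at least 2000 unique molecular identifiers (UMIs, each standing for 1 captured mRNA molecule), the summed UMIs of the 3 genes were divided by the total UMIs of the spot, and the highest 5% of spots of each section were taken. This gave 39 spots of the non-vaped (NV) male, 22 of the NV female and 96 of the vaped (V) female, 157 in all, which were set against the other 2986 spots of the same 3 sections with at least 2000 UMIs. The whole series held 4933 spots. A spot is a small area of tissue that can cover several cells of different types, so the values below describe regions rich in fat cells and not purified fat cells. Positions of the spots on the slide were not analysed here, so that their place relative to the hilum of the lung was not examined.

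White fat cells store triglyceride in 1 large droplet, make part of it from glucose through lipogenesis, release fatty acids by lipolysis and secrete hormones such as adiponectin, leptin and resistin. Brown fat cells hold many small droplets and dense mitochondria, and the uncoupling protein Ucp1 lets them burn fatty acids for heat. In the mouse chest, fat of white and brown character lies in the mediastinum around the airways and great vessels, next to the lung root, where heart muscle cells also sheathe the pulmonary veins.

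Visium arrays were used on lung cryosections from 4 C57BL/6J mice, which gave each group 1 male and 1 female. The V mice had breathed vapor of a peach flavored liquid (70% vegetable glycerin and 30% propylene glycol) from JUUL pens in a whole body chamber for 4 h per day on 5 d per week over 9 wk, starting at about 8 wk of age, and the NV mice were not vaped. GEO's labels give the tissue of all 4 samples as the upper pulmonary branches. The V male section was not among those the rule took in, and it stands below only for reference. Its 1565 spots held 19 Adipoq, 6 Plin1 and 155 Cidec UMIs in total. Each group is thus small, with 2 NV sections and 1 V section, and every section is 1 animal.

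The adipocyte-rich spots carried 256643, 828329 and 3385650 UMIs (values are given throughout in the order NV male, NV female, V female). Their depth went in opposite directions among sections. The median spot had 4945 UMIs in the NV male, against 10420 in the other spots, whereas it had 33670 against 10843 UMIs in the NV female and 33581 against 11624 in the V female. A sum with 3 UMIs of a gene would stand at 11.7, 3.62 and 0.886 CPM in the 3 sections, CPM being the UMIs of a gene scaled to 1000000 UMIs of the sum, which is the limit of detection used for genes at 0. Pairs of sections shared between 277 and 1167 spot barcodes, which name array positions and were kept apart by section. As fewer fat cells in a spot and less RNA per fat cell give the same counts, these cannot be told apart in any level below.

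The score itself had no gap at the 5% limit. The last spot inside and the first outside stood at 1310 and 1309 CPM in the NV male, at 4858 and 4804 in the NV female, and both at 2442 in the V female. The highest score was 7471, 6820.1 and 5474, and the median of the other spots was 91.1, 565 and 457. The adipocyte-rich spots held 40.1%, 48.4% and 34.7% of the UMIs of the 3 genes among spots of at least 2000 UMIs. Single adipocyte-rich spots held from 3 to 145, from 26 to 575 and from 9 to 358 UMIs of these genes, so that the choice rested on the fewest molecules in the NV male. By the choice of spots, Adipoq stood at 1477, 2876 and 1606 CPM, against 55.6, 417 and 314 CPM in the other spots. Plin1 stood at 623, 873 and 539.9 against 28.1, 136 and 147, and Cidec at 994, 2119.9 and 1400.0 against 47.0, 296 and 272. These 3 genes chose the spots and were not tested.

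**Figure D1:**
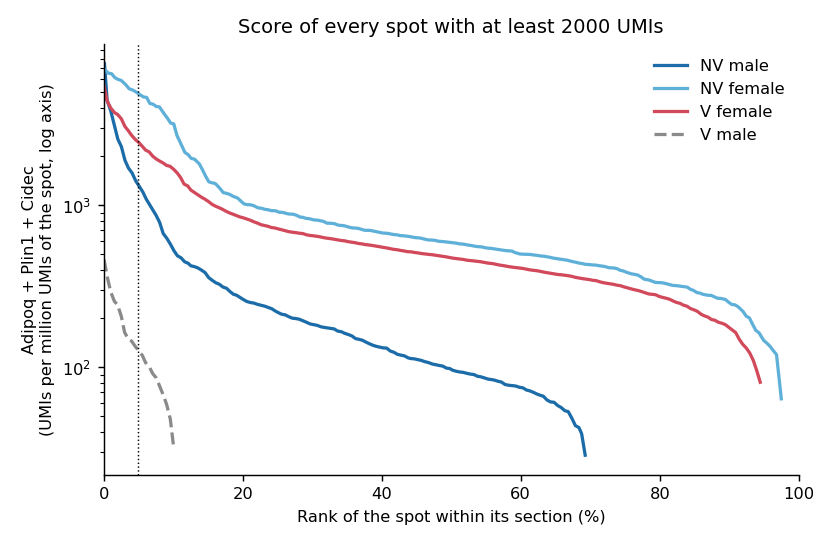
Score of each spot (summed Adipoq, Plin1 and Cidec UMIs over all UMIs of the spot, in CPM, log axis) against the rank of the spot within its section in percent, with 1 line per section and the 5% limit dotted, for spots with at least 2000 UMIs and a score above 0. The score fell without a step at the limit, and the V male section, with a highest score of 461, lay below the limit value of the other 3 sections throughout.

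The first question was which other genes mark these spots. UMIs were summed over the adipocyte-rich and over the other spots of each section, and the 6 sums were compared with edgeR's quasi-likelihood test with the section as a block. Of 13711 genes tested, 2034 were higher and 2014 lower in the adipocyte-rich spots with an adjusted p below 0.05 and a log2 fold change beyond 0.25 in either direction, which is 29.5% of all genes tested, 14.8% in the higher and 14.7% in the lower direction. The median log2 fold change of all genes was -0.08. The count was 1769 without the V female section, 2443 without the NV female section, 1903 without the section block and 968 after every spot had been thinned to 2000 UMIs. Genes that vary across spots together with the 3 rule genes differ through the choice of spots. To remove the counting noise that the choice and the comparison share, and only that, the UMIs were also divided at random, the spots being chosen on one part and compared on the other. It then called 2786 genes. Of the 4048 genes, 3978 could be tested there, all 3978 kept their direction, and 2692 were called again. These genes had been called on all UMIs, the compared part included. The spots chosen were also mostly the same, with 34 of 39, 19 of 22 and 87 of 96 shared. The kept direction is thus no independent support.

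All 8 fat cell markers that were checked outside the rule were higher in each of the 3 sections, as were 13.0% of all genes tested. Carbonic anhydrase 3 (Car3), an abundant enzyme of white fat cells, stood at 6530.5, 9526 and 6842 CPM, against 172, 996 and 797 CPM in the other spots (log2 fold change 4.08 ± 0.21 (SE), adjusted p = 2.2e-25). Adipsin (Cfd), a complement factor secreted by fat cells, stood at 8420.3, 25122 and 20562 against 350.2, 2962 and 2845 (log2 fold change 3.74 ± 0.19 (SE), adjusted p = 7.6e-26). Resistin (Retn), another secreted fat cell protein, stood at 1375, 3851 and 2588 against 58.3, 528 and 344 (log2 fold change 3.65 ± 0.19 (SE), adjusted p = 5.9e-25). For all 3 genes the lowest adipocyte-rich sum lay above the highest sum of other spots, which was the case for 7.42% of all genes tested, and the levels of the NV male were the lowest of the 3 sections on both sides. Leptin (Lep), the hormone that reports fat stores to the brain, was sparse and stood at 93.5, 83.3 and 36.9 CPM, against 4.63, 11.2 and 5.72 CPM in the other spots, from 24, 69 and 125 UMIs (log2 fold change 3.31 ± 0.21 (SE), adjusted p = 4.0e-22). Pparg, the master transcription factor of fat cells, Lipe, the hormone-sensitive lipase, Plin4, a droplet coat protein, and Fabp4, the fatty acid binding protein of fat cells, had log2 fold changes of 2.64, 2.62, 2.74 and 3.27.

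**Figure D2:**
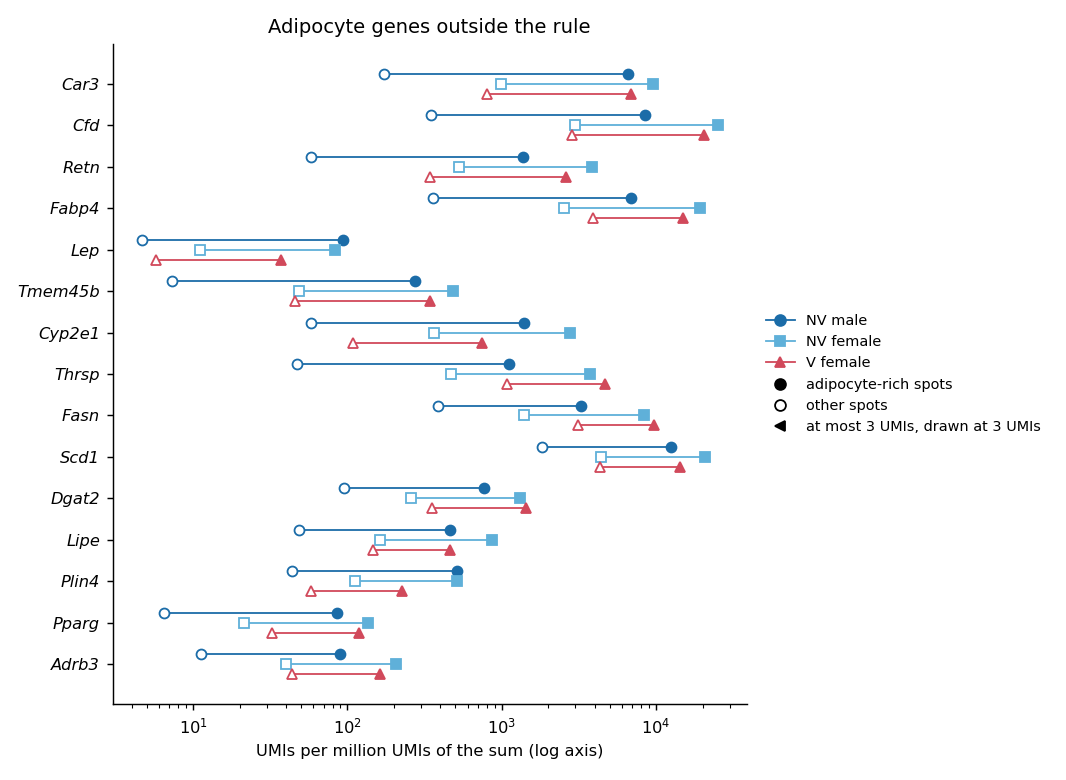
Level of 15 fat cell genes outside the rule in CPM (log axis) in the adipocyte-rich spots (filled) and the other spots (open) of each section, 1 sum per point, joined by section. Every filled point lies to the right of its open partner, and for Car3, Cfd, Retn and Lep all 3 filled points lie to the right of all 3 open points.

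Single spots varied around these sums. In the V female, Cfd ran from 5969 to 32979 CPM over the 96 spots with a median of 19904, and in the NV male from 423 to 19736 over 39 spots with a median of 5869. The spots of the NV female lay closer together, from 13853 to 31936. After each spot was thinned to 2000 UMIs, a Car3 UMI was found in 97.4% of the adipocyte-rich spots of the NV male and in 100% of those of both females, against 23.2%, 64.0% and 54.7% of the other spots. In the 5% of spots richest in alveolar type 2 markers, cells that should lack it, the shares were 17.9%, 77.3% and 37.5% at median depths of 11537, 10207 and 11337 UMIs before thinning. A share in that range therefore counted as background within these 3 sections. In the V male section the share over all 1489 spots was 1.21%.

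The genes with the largest differences held further names of fat biology and some without an established role there. Tmem45b, a membrane protein, stood at 273, 480.5 and 344 CPM against 7.28, 48.4 and 45.4 (log2 fold change 3.81 ± 0.19 (SE), adjusted p = 5.4e-26). Cyp2e1, a cytochrome P450 that oxidizes ethanol, acetone and fatty acids, stood at 1391, 2786 and 743 against 58.4, 366 and 109 (log2 fold change 3.62 ± 0.19 (SE), adjusted p = 6.2e-25). Thrsp, a lipogenic regulator, and Pck1, which supplies glycerol phosphate for triglycerides in fat cells, had log2 fold changes of 3.41 and 3.27. Tshr, the thyrotropin receptor, which fat cells carry outside the thyroid, rested on only 12, 23 and 44 UMIs and stood at 46.8, 27.8 and 13.0 against 1.65, 5.25 and 1.79 CPM (log2 fold change 3.32 ± 0.34 (SE), adjusted p = 1.6e-12). The 12 lower genes with the largest fitted changes had at most 4 UMIs in any adipocyte-rich sum, so that no fold is given for them. Apol6 and the acute phase protein gene Orm1 stood 3.37 and 3.29 higher on the log2 scale.

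Promoters were looked up for the 3 rule genes and the 12 genes with the largest higher values, and RefSeq windows (GRCm38.p6) were found for 9 of these 15. In the 250 bases before the start, the letters TTGCGCAA, a palindrome bound by C/EBP factors, were found on either strand in 1 of the 9, Lep, and in 0.164% of 32851 promoters. CCAAT was found in 3 of the 9 (Adipoq, Cyp2e1 and Thrsp) and in 33.8% of all promoters, TATAAA in 1 of the 9, Cyp2e1, and in 12.4%, GGGCGG in 2 of the 9, Lep and Pck1, and in 32.7%, and AGGTCA in 0 of the 9 and in 14% of all promoters. The 120 bases before the start are shown for Lep, which carried the rare palindrome, and for Adipoq and Thrsp, which carried CCAAT near the start. Capitals mark TTGCGCAA in Lep (chr6:29060101-29060220, + strand) and CCAAT or its complement ATTGG in Adipoq (chr16:23146416-23146535, + strand) and Thrsp (chr7:97417551-97417670, - strand), and the matches are a description of letters, not of binding.
Lep: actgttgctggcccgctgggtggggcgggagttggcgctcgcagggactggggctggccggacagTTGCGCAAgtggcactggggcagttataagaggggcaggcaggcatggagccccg
Adipoq: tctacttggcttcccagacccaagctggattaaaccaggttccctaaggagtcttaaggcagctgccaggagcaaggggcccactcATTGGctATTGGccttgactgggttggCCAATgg
Thrsp: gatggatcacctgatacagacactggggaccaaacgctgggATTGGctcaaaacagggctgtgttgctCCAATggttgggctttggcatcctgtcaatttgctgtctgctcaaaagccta

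The pathway of fat storage was higher along most of its length. Of 18 lipogenesis genes tested, 16 were higher and 1 was lower, with a median log2 fold change of 2.49. Fasn, the fatty acid synthase, stood at 3269, 8372 and 9689.7 CPM, against 387, 1398 and 3101 CPM in the other spots (log2 fold change 2.67 ± 0.17 (SE), adjusted p = 1.8e-21). Scd1, which desaturates the products, stood at 12398, 20657 and 14339 against 1834, 4393 and 4321. The enzymes and carriers that feed the pathway were also higher, with log2 fold changes of 2.78 for Me1, the malic enzyme, 2.59 for Slc25a1, the mitochondrial citrate carrier, and 2.04 for Acly, the ATP citrate lyase. Mid1ip1, which activates acetyl-CoA carboxylase, was the lower member (log2 fold change -0.64 ± 0.16 (SE), adjusted p = 9.2e-04). Of 19 genes of fatty acid uptake and triglyceride synthesis, 17 were higher and none was lower, with a median of 1.94. Fabp4 stood at 6873, 19129 and 14863 CPM, against 356, 2519 and 3888 CPM in the other spots, and Dgat2, which makes the last bond of triglyceride, at 768, 1306 and 1443 against 94.8, 258 and 352 (log2 fold change 2.68 ± 0.16 (SE), adjusted p = 1.2e-22). Lpl, the lipase that frees fatty acids from lipoproteins, stood at 1609, 2072 and 1902 CPM, against 426, 719 and 699.9 CPM in the other spots (log2 fold change 1.87 ± 0.15 (SE), adjusted p = 1.6e-16), and Agpat2, an acyltransferase needed for fat cells, at 526, 1285 and 1718 against 64.3, 197 and 537. The groups were apart for Lpl and Dgat2 and overlapped for Agpat2, whose other spots of the V female stood above the adipocyte-rich spots of the NV male. The smallest difference among those called was that of Cd36, a fatty acid transporter also known from capillary cells (log2 fold change 0.52 ± 0.15 (SE), adjusted p = 0.0054). Gpihbp1, which anchors lipoprotein lipase to capillaries, stood at 183, 191 and 156 against 170.4, 232 and 231 and did not pass (adjusted p = 0.84).

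Genes of the lipid droplet and of lipolysis followed, with 12 of 16 higher, 1 lower and a median of 1.46. Pnpla2, the first lipase of fat breakdown, stood at 939, 1940.0 and 1489.8 CPM, against 179, 410.0 and 548 CPM in the other spots (log2 fold change 2.26 ± 0.16 (SE), adjusted p = 3.0e-19). Lipe, which acts after it, stood at 459.8, 866 and 459 against 48.4, 162 and 146, and Mgll, the last lipase, at 296, 531 and 417 against 96.5, 142 and 185. The lower gene was Hilpda, an inhibitor of Pnpla2, at 23.4, 36.2 and 27.2 against 78.9, 99.6 and 80.2 (log2 fold change -1.27 ± 0.17 (SE), adjusted p = 9.7e-09). The caveolar genes Cav1 and Cavin1, which fat cells share with lung endothelium and alveolar type 1 cells, had log2 fold changes of 0.11 and 0.06 that did not pass.

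Among 24 tested transcription factors and hormone receptors of fat cells, 17 were higher and 3 lower. Pparg stood at 85.7, 136 and 118 CPM, against 6.51, 21.5 and 32.6 CPM in the other spots (log2 fold change 2.64 ± 0.17 (SE), adjusted p = 5.0e-21), and its partner Cebpa at 284, 502 and 335 against 55.0, 119.8 and 123. Adrb3, the adrenergic receptor typical of rodent fat cells, stood at 89.6, 206 and 163 against 11.2, 39.9 and 43.6 (log2 fold change 2.49 ± 0.15 (SE), adjusted p = 1.4e-22). Among the lower genes, Adrb1, an adrenergic receptor best known from heart muscle, stood at 31.2, 16.9 and 26.6 against 60.8, 37.9 and 58.3 (adjusted p = 2.8e-04), and Cebpd, which acts early in fat cell formation and also responds to stress signals, was lower as well (log2 fold change -0.87 ± 0.15 (SE), adjusted p = 3.8e-06). Slc2a4, the insulin-responsive glucose transporter of fat and muscle, stood at 140.3, 164 and 187 against 56.5, 84.3 and 95.9 (log2 fold change 1.29 ± 0.14 (SE), adjusted p = 8.2e-12).

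Of the 21 tested adipokines and genes of white fat, 13 were higher and 3 lower. Rbp4, the carrier of retinol, stood at 339, 544 and 388 CPM against 25.6, 91.4 and 78.3 (log2 fold change 3.02 ± 0.16 (SE), adjusted p = 1.4e-24). Trarg1, a regulator of glucose transporter traffic, had a log2 fold change of 2.38. The lower genes were Tcf21, a mesenchymal transcription factor, Apln, the peptide apelin, and Npr3, a natriuretic peptide receptor, with log2 fold changes of -1.35, -0.74 and -0.52. Npr3 turned to 0.077 without the V female section.

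Mitochondrial genes were higher by smaller amounts. Of 27 tested genes of pyruvate dehydrogenase and the TCA cycle, 26 were higher and none lower (median 0.83). Of 22 genes of mitochondrial fatty acid oxidation, 18 were higher and 1 lower (median 1.13). Of 75 nuclear genes of the respiratory chain, 70 were higher and 2 lower (median 0.69), and all 13 mitochondrially encoded genes were higher (median 0.55). The 4 medians stayed above 0 under every alternative tried. The fits scale the sums by TMM, with factors of 0.988, 0.924 and 0.853 for adipocyte-rich and 1.10, 1.10 and 1.06 for other spots. This places fitted changes above the log2 ratios of the CPM, which matters most for small differences. The summed CPM of the mitochondrially encoded genes was 142981, 109285 and 127619 against 108110, 95637.5 and 100693. The part of the scaling in these differences was not tested. Without the V female section 37 of the nuclear chain genes and 4 of the mitochondrially encoded genes were called higher, and without the section block 10 of the oxidation genes, 7 of the TCA cycle genes, 6 of the nuclear chain genes and 2 of the mitochondrially encoded genes. Over all genes, 981 of 12814 were higher without the V female section and 1062 of 13190 without the section block. The 6 of 75 nuclear chain genes without the block are thus near the share of all genes.

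Acadm, which oxidizes medium chain fatty acids, stood at 358, 621 and 738 CPM, against 173, 228 and 374 CPM in the other spots (log2 fold change 1.41 ± 0.15 (SE), adjusted p = 6.1e-12). Mpc1, a subunit of the pyruvate carrier, stood at 561, 748 and 1256 against 212, 267 and 566, and Cox8a, the common form of a small cytochrome oxidase subunit, at 1208, 1796 and 2329.8 against 456, 706 and 1156 (log2 fold change 1.49 ± 0.15 (SE), adjusted p = 9.5e-13). Hadhb, a subunit of the trifunctional protein of fatty acid oxidation, stood at 288, 529 and 933 against 224, 309.6 and 589. Both classes of spots stood highest in the V female, and the classes overlapped across sections for Acadm, Mpc1 and Hadhb but not for Cox8a. Among the mitochondrially encoded genes, mt-Co3, a core subunit of cytochrome oxidase, stood at 23874, 21022 and 26296 CPM, against 19352, 18064 and 19982 CPM in the other spots (log2 fold change 0.55 ± 0.14 (SE), adjusted p = 0.0017). Its groups were apart, at a small difference. Cpt1a, the liver form of the enzyme that admits fatty acids to mitochondria, was the lower oxidation gene (log2 fold change -0.59 ± 0.16 (SE), adjusted p = 0.0034). The 2 lower chain genes were the muscle form Cox6a2 and Cox4i2, a form known from lung, with log2 fold changes of -0.73 and -1.56. Cox6a2 turned to 0.46 once the 10% of spots richest in heart muscle markers were left out of each section, and Cox4i2 stood at -1.70. Nearly all spots left out were other spots. The step itself thus lowers genes of heart muscle in the remaining other spots, so that it does not separate the 2 genes.

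Genes of brown fat divided the sections. Ucp1 (chr8:83290352-83298452, GRCm38), the uncoupling protein that defines active brown fat cells, had 0, 4 and 4228 UMIs in the adipocyte-rich spots, or 0, 4.83 and 1249 CPM. The other spots of these sections stood at 0.110, 0.492 and 819. Elovl3, which elongates fatty acids in brown fat, stood at 0, 2.41 and 96.9 against 0, 0.656 and 54.0, and Otop1, a proton channel enriched in brown fat, at 3.90, 15.7 and 58.2 against 0.772, 1.31 and 23.9. Cidea, a droplet protein of brown fat, was detected in every section and stood at 85.7, 162 and 916 CPM, against 5.18, 18.7 and 516 CPM in the other spots. Cox8b, a form of the oxidase subunit shared by brown fat and heart muscle, stood at 647, 1016 and 2105 against 381, 569.8 and 1224. The V female thus stood above both NV sections in each of these 5 genes, in the other spots as well as in the adipocyte-rich spots.

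**Figure D3:**
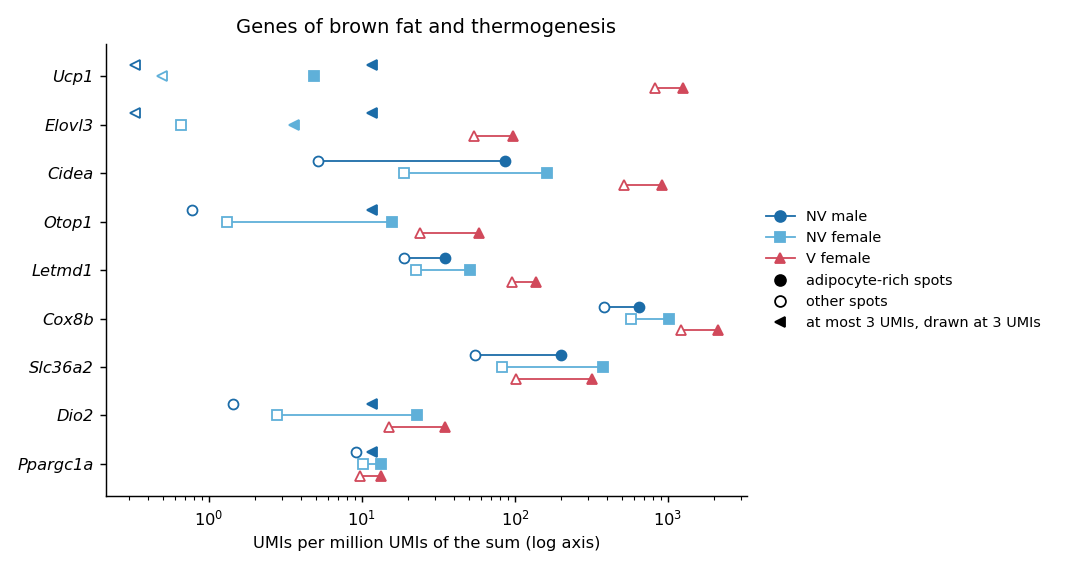
Level of 9 genes of brown fat and thermogenesis in CPM (log axis) in the adipocyte-rich (filled) and the other spots (open) of each section, 1 sum per point. Triangles pointing left mark sums with at most 3 UMIs, drawn at the level of 3 UMIs, and are not joined to their partner. Ucp1, Elovl3 and Cidea lie furthest to the right in the V female, and the gap between the classes of spots is smaller for Cidea in the V female than in the NV sections.

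Against the other spots, 19 of 36 tested genes of brown fat thermogenesis were higher and 3 lower, with a median of 0.57. This count was 10 of 29 without the V female section and 5 of 34 without the section block. Over all genes, 981 of 12814 and 1062 of 13190 were higher in these settings. Cidea (log2 fold change 2.40 ± 0.24 (SE), adjusted p = 7.7e-13), Otop1 (1.84), Cox8b (1.04), Elovl3 (1.18) and Ucp1 (1.05, adjusted p = 5.4e-04) were among the higher genes. The difference in Ucp1 rested on the V female, as the adipocyte-rich sums of the NV sections held at most 4 UMIs. It did not pass with the highest 2.5% of spots (log2 fold change 0.18), with spots of at least 5000 UMIs (0.67), without the section block (0.96), with DESeq2's Wald test (2.11) or with limma on mean CPM (0.89). Slc36a2, an amino acid transporter of brown fat cells, was higher in every section, at 199, 374 and 320.5 against 54.7, 82.0 and 101. Plin5, a droplet protein of tissues that burn fat, stood at 27.3, 22.9 and 54.6 against 6.28, 9.84 and 26.7 (log2 fold change 1.45 ± 0.20 (SE), adjusted p = 1.3e-08). Ppargc1a, a coactivator of mitochondrial growth, was sparse, at 11.7, 13.3 and 13.3 against 9.15, 10.2 and 9.75 from 3, 11 and 45 UMIs (log2 fold change 0.71 ± 0.27 (SE), adjusted p = 0.042). Dio2, which makes active thyroid hormone in brown fat, had 0, 19 and 119 UMIs and was higher in both females (log2 fold change 1.83 ± 0.26 (SE), adjusted p = 3.8e-08, a fitted value that depends on the prior count, as the NV male was at 0). Prdm16, a factor that sets brown fat identity, stood at 7.79, 10.9 and 10.0 against 10.9, 7.55 and 13.5 and did not pass (adjusted p = 0.91). Its adipocyte-rich sum in the NV male lay under the limit of 3 UMIs, so that it was too sparse there to compare. Of the lower genes, Fabp3, a fatty acid binding protein of heart muscle and brown fat, had a log2 fold change of -0.46. It turned to 0.072 with the highest 10% of spots. Without the spots rich in heart muscle markers it was 0.61, a step that itself lowers heart muscle genes in the remaining other spots. Of 8 tested beige fat genes, 1 was higher and 2 were lower. The higher gene, Slc27a1 (2.73), is a fatty acid transporter of white and brown fat alike, and the lower genes Ear2 and Atp2a2 are also known from alveolar macrophages and heart muscle.

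Within the V female, the spots highest for the 3 rule genes overlapped in part with those highest for Ucp1. When the 96 spots with the highest Ucp1 share were taken, 24 of them, 25.0% of either set, were adipocyte-rich spots, which made up 4.98% of all spots of that section with at least 2000 UMIs. The adipocyte-rich spots held 14.4% of the Ucp1 UMIs, with 9.91% of all UMIs. The 72 Ucp1-high spots outside the class stood at 4146 CPM for Ucp1, 2357 for Cidea, 2133 for Car3 and 476 for Retn. The 72 adipocyte-rich spots that were not Ucp1-high stood at 694, 649.8, 7651 and 2977 for the same genes. Fabp4 differed little between these sets, at 14186 and 14665. As the sets were picked on Ucp1, its own values are a description.

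Levels were also summed along the score. In the V female, Ucp1 stood at 1249 CPM in the highest 5% of spots, at 3386 in the next 5%, at 1193 between 10% and 20% and at 267 in the lowest 40%. Cidea followed with 916, 1960.1, 733 and 199, and Elovl3 with 96.9, 217, 71.7 and 19.4. Car3 declined from the first step, at 6842, 2496, 1326 and 333, and so did Cfd and Retn. In both NV sections Cidea also declined from the first step, from 85.7 to 19.1 in the male and from 162 to 93.1 in the female. Spearman's rho of the Ucp1 share with the Cidea share was 0.82 over the 96 adipocyte-rich spots of the V female. These spots share 1 library and were chosen on fat cell genes. Over them rho was -0.57 with Car3, -0.40 with Cfd, -0.31 with Retn and 0.30 with Fabp4. Over all 1926 spots of that section with at least 2000 UMIs, rho of Ucp1 with Cidea was 0.33.

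**Figure D4:**
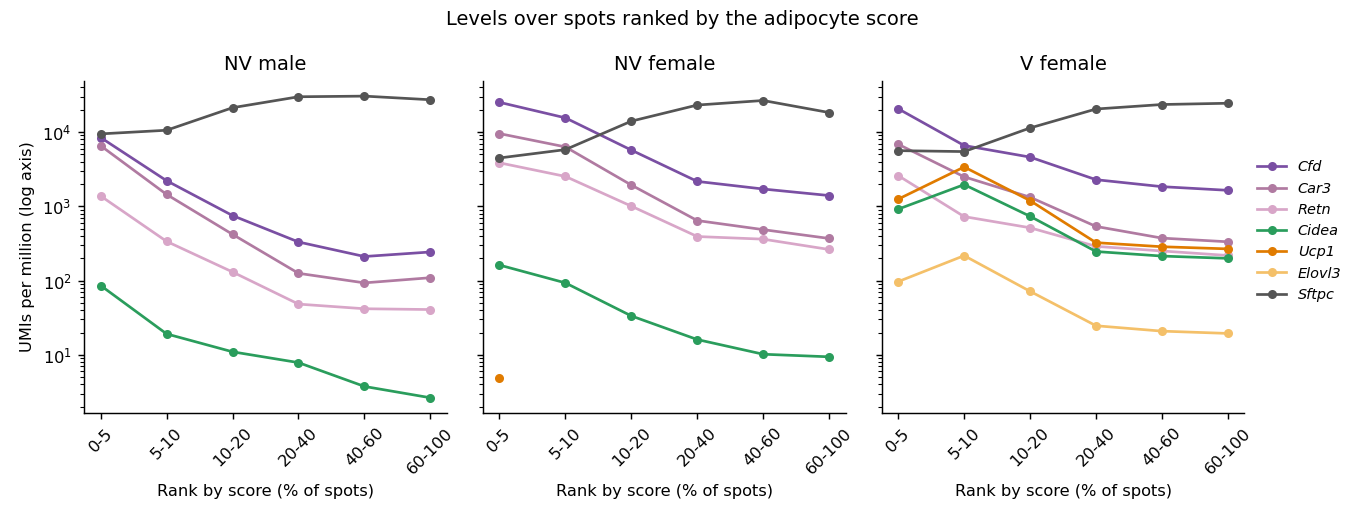
Level of 7 genes in CPM (log axis) in sums over spots ranked by the adipocyte score, from the highest 5% on the left to the lowest 40% on the right, 1 panel per section. Points with at most 3 UMIs are left out. Cfd, Car3 and Retn decline from the first step in each section, Sftpc is lower on the left, and Ucp1, Cidea and Elovl3 of the V female peak in the second step, Ucp1 at 3386.

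After thinning to 2000 UMIs, 78.1% of the 96 adipocyte-rich spots of the V female held a Ucp1 UMI (exact 95% interval 68.5% to 85.9%). The share was 46.7% in the other spots and 50.0% in the 96 spots richest in alveolar type 2 markers, which should lack it. The last share is the background for Ucp1 in that section. In the NV sections 0 of 39 and 0 of 22 adipocyte-rich spots held one, which allows shares of spots with a UMI of up to 7.69% and 13.6% by the limit of 3 spots, and of up to 9.03% and 15.4% by the exact 95% interval. For Cidea the shares were 10.3%, 22.7% and 68.8% in the adipocyte-rich spots, against 0%, 0% and 35.4% in the alveolar type 2 rich spots. Intervals and limits cover counting error only.

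The next question was which other cell types the adipocyte-rich spots held. Markers of the gas exchange surface were lower throughout. All 10 alveolar type 2 genes were lower (median -1.43), their summed level being 16030.0, 8545 and 10339 against 45334, 33602 and 32724 CPM in the other spots, and all 8 alveolar type 1 genes were lower (median -1.26). Sftpc, the surfactant protein of alveolar type 2 cells, still stood at 9441, 4475 and 5615 CPM, against 27659.8, 19416 and 19237 CPM in the other spots (log2 fold change -1.57 ± 0.15 (SE), adjusted p = 4.0e-14), so that lung transcripts were part of every sum. Of 10 capillary endothelial genes, 8 were lower and none was higher (median -0.84). Pecam1, found on all endothelium, stood at 132, 139 and 123 against 312, 316 and 292 (log2 fold change -0.97 ± 0.15 (SE), adjusted p = 2.7e-07). Of the remaining lists, T cell and neutrophil markers were lower in 8 of 10 genes, smooth muscle in 6 of 8, large vessels and lymphatics in 5 of 7, and ciliated cells in 3 of 7, with none higher. Without the V female section these counts were 3, 2, 3 and 1, with medians still below 0, and without the NV female section 3 T cell and neutrophil markers were lower. Of 5 club cell genes, 1 was higher and 2 were lower. The lower Scgb1a1, the main secretoglobin of club cells, stood at 3912, 839 and 4962 against 12713, 2286 and 12261, and the higher Aldh1a7, an aldehyde dehydrogenase, at 129, 119.5 and 131 against 41.8, 38.6 and 63.6 (log2 fold change 1.61 ± 0.15 (SE), adjusted p = 8.3e-15). Red blood cell genes were lower in 5 of 5, but in 0 without the NV female section or without the section block. Immediate-early genes, whose RNA rises quickly upon cell stimulation, were lower in 7 of 12, none being higher, and in 3 without the V female section, 4 without the NV female section and 0 without the section block. Over all genes, 788 of 12814 were lower without the V female section, 1072 of 13783 without the NV female section and 841 of 13190 without the section block.

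The level of heart muscle markers relative to the other spots depended on which other spots were kept. Of 13 tested, 12 were lower and none higher in the adipocyte-rich spots (median -0.75), 3 were lower without the NV female section, 0 were called without the section block, and 11 were higher and 1 lower (median 0.49) after the 10% of spots richest in these markers had been left out of each section. That step kept 38 of 39, 22 of 22 and 91 of 96 adipocyte-rich spots, so that nearly all spots left out were other spots chosen on these same markers, and a lower level of the markers in the remaining other spots follows from the step itself. The atrial light chain gene Myl7 stood at 3183, 1262 and 943 CPM, against 3609, 4247 and 2067 CPM in the other spots (log2 fold change -0.78 ± 0.17 (SE), adjusted p = 1.6e-04) and turned to 0.62 without those spots. In the V male section the summed level of heart muscle markers over all spots was 34.4 CPM, against at least 4714 in each class of spots of the other sections. Of 3 tested skeletal muscle genes, none was called by edgeR, and 4 of the 12 listed had no UMI in any adipocyte-rich sum.

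Of 25 genes of fat stroma and progenitors, 5 were higher and 6 lower, shares not far from those of all genes. Without the V female section 2 were higher and 2 lower, and without the section block 0 and 2. Over all genes, 981 were higher and 788 lower of 12814 without the V female section. Without the section block 1062 were higher and 841 lower of 13190. Decorin (Dcn), a matrix proteoglycan, stood at 1068, 590.3 and 938 against 476, 705 and 612 (log2 fold change 0.75 ± 0.16 (SE), adjusted p = 2.1e-04), whereas Pdgfra, a receptor of fibroblasts and fat progenitors, stood at 89.6, 68.8 and 50.2 against 148, 171 and 118 (log2 fold change -0.90 ± 0.15 (SE), adjusted p = 1.6e-06). Macrophage genes went in both directions, with 3 of 13 higher and 5 lower. The complement genes C1qa and C1qc and the scavenger receptor Cd163, known from macrophages resident in tissue, had log2 fold changes of 0.44, 0.51 and 0.82, and none of the 3 passed without the V female section. Chil3, a gene of alveolar macrophages, was lower (log2 fold change -1.17 ± 0.16 (SE), adjusted p = 1.2e-08). Mesothelial genes were higher in 1 and lower in 2 of 6, and nerve and Schwann cell genes lower in 1 of 9. The part of other cells in the levels of fat genes was not tested.

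**Figure D5:**
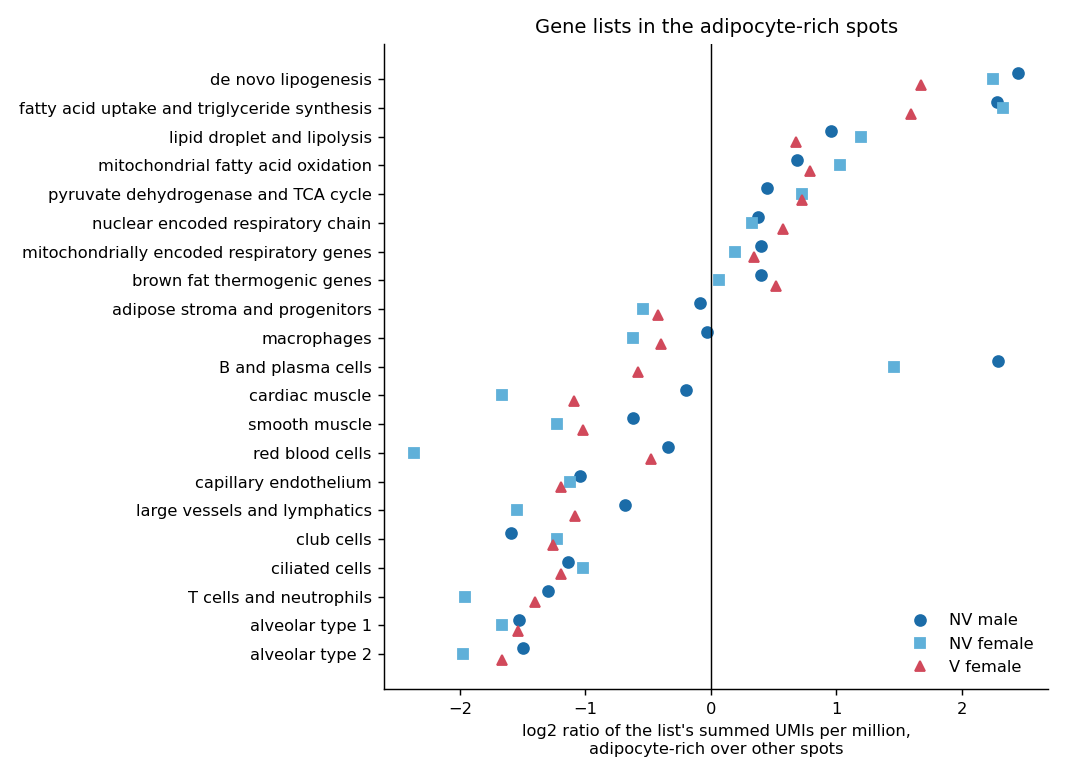
Log2 ratio of the summed CPM of each gene list, adipocyte-rich over other spots of the same section, with 1 point per section and total UMIs as the only scaling. The lists of lipogenesis and of fatty acid uptake lie to the right and those of alveolar and T cells to the left in every section, and the B and plasma cell list lies to the right in both NV sections and to the left in the V female.

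Antibody genes stood out in both NV sections. Jchain, which joins secreted IgM and IgA, stood at 1711, 526 and 44.0 CPM, against 177, 101 and 69.7 CPM in the other spots. Ighm, the heavy chain of IgM, stood at 3074, 3176 and 192 against 753, 800.0 and 217, and Igkc, the kappa light chain, at 8031, 1012 and 337 against 1381, 531 and 452. The 3 genes were called higher over all sections (log2 fold changes 2.03, 1.55 and 1.25), whereas 5 of the 9 tested B and plasma cell genes were lower, among them the B cell receptor gene Cd79a (-0.98). Few spots carried these UMIs. In the NV male, 1 spot held 90.7% of the Jchain UMIs of all 39 adipocyte-rich spots and 89.1% of those of Igkc. In the NV female, 3 spots held 83.9% of the Jchain UMIs, and in the V female 28.9%. Once the 3 adipocyte-rich spots with most Jchain UMIs had been left out of each section, a step added after the data had been seen, the log2 fold changes were -0.40 for Jchain, -0.26 for Ighm and -0.12 for Igkc. The other spots kept theirs, with up to 9425, 8456 and 4313 CPM of Jchain in a single spot. The step itself thus lowers antibody genes in the adipocyte-rich spots, so that the negative values are no result about them.

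The adipocyte-rich spots of the V female were then compared with those of both NV sections. Of 9610 genes tested with edgeR, 30 were higher and 13 lower in the V female, 0.447% of those tested, 0.312% in the higher and 0.135% in the lower direction. DESeq2's Wald test called 9 genes. Without the filter on low counts edgeR called 0, with 253 at an unadjusted p under 0.05. As the V group is 1 section, its spread is assumed to equal that between the NV sections, and exposure cannot be told apart from the animal and the piece of tissue cut. Sex was not balanced either, as the V section was female and the NV sections were 1 male and 1 female. The largest differences included Ucp1 (log2 fold change 8.53 ± 0.71 (SE), adjusted p = 4.0e-29), which was at least 107-fold higher in the V female than the 3 UMI limit of the NV male and 259-fold higher than in the NV female. Ucp1 and Elovl3 (5.77), with at most 4 UMIs in either NV sum, entered the test through the V female alone and had to differ. Other higher genes of the brown fat list were Cidea (log2 fold change 2.95 ± 0.50 (SE), adjusted p = 2.1e-06), Otop1 (2.33, from 1, 13 and 197 UMIs), the brown fat mitochondrial gene Letmd1 (1.70) and Cpt1b, the muscle and brown fat form of the enzyme that admits fatty acids to mitochondria (1.84). The fitted values of Ucp1 and Elovl3 depend on the prior count of the fit, since both were at 0 in the NV male. Cidea was 10.7-fold higher than in the NV male and 5.66-fold higher than in the NV female.

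The white fat genes Cfd, Car3, Retn and Lep were not called in this comparison. Cfd, Car3 and Retn had log2 differences of 0.40, -0.12 and 0.09 with standard errors of 0.51, 0.53 and 0.53, and Lep had -1.13 ± 0.44. Of 18 lipogenesis genes none was called by edgeR, and the median difference was 0.68. The higher genes Bpifa1 and Scgb3a1 were also highest in the V female among the other spots. Bpifa1, a secreted airway protein, stood at 77.9, 42.3 and 3832 against 159.8, 53.3 and 7879.6 in the other spots. Scgb3a1, a secretoglobin of airway cells, stood at 7.79, 31.4 and 590.1 against 11.2, 71.2 and 1407, its first value lying under the limit of 3 UMIs. Of 9 tested B and plasma cell genes, Jchain (-4.53), Ighm (-3.91) and Igkc (-3.61) were lower in the V female and Igha, the heavy chain of IgA, was higher (log2 fold change 2.19 ± 0.45 (SE), adjusted p = 3.8e-04). The light chain genes Iglc2 and Iglc3 and the imprinted gene Nnat were lower too. The size of the antibody gene differences rested on few NV spots. Without the 3 adipocyte-rich spots per section with most UMIs of the gene, Jchain stood at 100, 102 and 32.3 CPM. Ighm then stood at 395, 708 and 150, and Igkc at 719, 543 and 267. Of 10 tested immediate-early genes, Nr4a1 and Dusp1 were lower and none was higher. Nr4a1 stood at 164, 44.7 and 10.6 in the adipocyte-rich and at 234, 92.9 and 26.8 in the other spots, the same order of sections in both.

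Whether the difference between adipocyte-rich and other spots itself differed between V and NV was tested as an interaction over the 6 sums. Of 14605 genes, 1 was called higher and 13 lower, 0.0959% of those tested, 0.00685% in the higher and 0.089% in the lower direction. Fat genes with a smaller difference in the V female were Cidea (interaction -2.51, adjusted p = 4.0e-07), Pck1 (-2.38), Gpd1, which links glycolysis to glycerol phosphate (-1.79), Fabp4 (-1.54) and Thrsp (-1.51). For Gpd1 the levels were 382, 905 and 1882 against 39.1, 132 and 875, so that both classes of spots stood highest in the V female. The next 5% of spots by score count as other spots. In the V female they stood at 3052 CPM for Gpd1, 4170 for Thrsp, 12961 for Fabp4 and 1960 for Cidea. For the same genes they stood at 142, 276, 1501 and 19.1 in the NV male and at 584, 2633, 11459 and 93.1 in the NV female. The part of these spots in the smaller differences was not tested. Pck1 stood at 526, 1090.2 and 396 against 16.9, 125 and 145, the V female being the lowest of the adipocyte-rich sums. Nnat, Jchain, Ighm, Igkc, Iglc2 and Iglc3 were called in the same direction. DESeq2's Wald test called 1 gene in this design, Jchain (adjusted p = 2.3e-05), and left Cidea at an adjusted p of 0.073. With spots thinned to 2000 UMIs edgeR called 0 genes, with 228 at an unadjusted p under 0.05.

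In the V male section, the highest 5% of spots by the same score would be 74 spots with scores from 129 to 461 CPM, and most of their score came from Cidec, with 84 of 95 marker UMIs. These spots had no UMI of Cfd, Retn, Lep or Cidea. They stood at 888 CPM for Chil3 and 145 for Ear2, genes of alveolar macrophages, against 414 and 69.4 in the other spots of that section, as single values without a test. Among further macrophage genes, Mrc1 stood at 85.6 against 43.3, whereas Marco (63.6 against 53.9) and Cd68 (43.9 against 33.3) differed less. Over all its spots, Cfd stood at 3.45 and Ucp1 at 0.337 CPM. The section thus offered no adipocyte-rich spots for a V against NV comparison within the males.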

How the data were processed

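Lung cryosections were profiled on Visium arrays, whose spots are 50 µm wide. Per the study's methods and the labels, the authors aligned reads with SpaceRanger 1.2.2 to the 10x mouse reference for mm10, used Seurat 4.0.3 in their own analysis, and deposited for every spot the raw count of UMIs of each gene, which was used here. Each table held 32285 genes. All deposited spots with at least 2000 UMIs entered, 473 to 2053 being deposited per section. Adipocyte-rich spots and gene lists were chosen with earlier results of these data known. The sums of UMIs went into edgeR 4.0.16 (R 4.3.3, TMM, filterByExpr, quasi-likelihood test, section as a block because both classes of spots came from the same animal). A call needed a p below 0.05 after Benjamini-Hochberg adjustment and a log2 fold change beyond 0.25 in either direction. Standard errors were derived from the F statistic. Levels are CPM on total UMIs, without TMM. In the comparison of both classes of spots, TMM placed fitted changes above the ratios of these levels. The fits were also run on simulated sums with a fixed dispersion and no differences between sections, as a check of the code and not of the calls. The genes named were the rule genes, Ucp1 and Lep, up to 6 of the most abundant tested genes of each list, and the 12 (6 for V against NV and for the interaction) called genes with the largest changes in each direction among those with at least 100 UMIs, and further list genes were named after their values were seen. Alternatives were DESeq2 1.42.0, limma 3.58.1 on the log2 of mean CPM plus 1, no filter, no fold threshold, other spot limits and scores, thinning, sections left out and no block. Shares of spots carry exact 95% binomial intervals. For adipocyte-rich against other spots with the section as a block, p-values rest on how the difference between both classes varied between sections. Differences in level between whole sections are taken up by the block. For V against NV and for the interaction, only the NV sections supply a spread, as the V group is 1 section. Coordinates are from GENCODE vM21 and promoters from RefSeq, both for GRCm38. Skeletal muscle, cartilage, thymus and club cell lists were checked and gave 0, 0, 0 and 1 higher and 0, 1, 1 and 2 lower genes.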

Additional observations from a re-analysis of the deposited data

Results flagged for a closer look

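The interaction test called 14 genes whose difference between adipocyte-rich and other spots differed between the V female and both NV sections. On the log2 scale, V minus NV, the values were -3.42 for Nnat, -3.37 for Jchain, -3.34 for A530053G22Rik, -2.51 for Cidea, -2.46 for Iglc2, -2.38 for Pck1, -2.18 for Pon1, -2.07 for Ighm, -2.04 for Igkc, -1.90 for Iglc3, -1.79 for Gpd1, -1.54 for Fabp4, -1.51 for Thrsp and 2.04 for Fcna. Without the 3 adipocyte-rich spots per section with most Jchain UMIs, 7 genes were called, and Ighm, Iglc2 and Iglc3 turned to 0.16, 0.12 and 0.34. No other spots were left out in this step, which itself lowers antibody genes in the adipocyte-rich spots. Nnat was counted at 308, 36.2 and 3.54 CPM in the adipocyte-rich spots against 22.7, 13.8 and 6.05 in the other spots, and its difference of 2.12 over all sections was 0.72 without the NV male. Acot11, a thioesterase gene, had log2 ratios of adipocyte-rich over other spots of -1.03 and -0.35 in the NV sections and 0.37 in the V female, a difference in direction that the interaction test did not call. The adipocyte-rich sums held 2, 8 and 305 UMIs of it, the first of them under the limit of 3 UMIs, so that the ratio of the NV male is not a reliable value.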

How the results depend on the processing

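The count of genes called between adipocyte-rich and other spots was 1961 with DESeq2's Wald test, 2671 with spots of at least 5000 UMIs, 968 with spots thinned to 2000 UMIs (8624 genes tested) and 1903 without the replicate block, and between 1769 and 3677 with 1 section left out. Among its calls, 64.2% were higher with DESeq2's Wald test, against 50.2%, and 25.6% with limma on mean CPM, where the median of all genes was -0.40. Named genes called numbered 159, 96 after thinning and 72 without the block. V against NV in adipocyte-rich spots gave 9 genes with DESeq2's Wald test, 0 without a filter (edgeR, with 253 at an unadjusted p under 0.05), 26 with the highest 2.5% of spots and 11 after thinning. The interaction gave 1, 7 with the highest 2.5% of spots, 6 with at least 5000 UMIs, 7 without the spots highest for Jchain and 0 after thinning (edgeR, 228 at an unadjusted p under 0.05). The causes were not tested. The log2 difference between adipocyte-rich and other spots changed sign with the highest 10% of spots for Fabp3 (0.072), and after thinning for Fabp3 (0.069), and without the spots richest in heart muscle markers for Fabp3 (0.61), Atp2a2 (0.43), Cox6a2 (0.46), Myl7 (0.62), and without the spots highest for Jchain for Jchain (-0.40), Ighm (-0.26), Igkc (-0.12), and without the V female section for Npr3 (0.077). Leaving out the spots richest in heart muscle markers itself lowers heart muscle genes in the remaining other spots. Leaving out the adipocyte-rich spots highest for Jchain itself lowers antibody genes in that class, as the other spots kept theirs. The interaction changed sign without the spots highest for Jchain for Ighm (0.16), Iglc2 (0.12), Iglc3 (0.34). With 1 section left out, Npr3 ranged from -0.75 to 0.077. In the V female, the share of adipocyte-rich spots with a UMI was 78.1% for Ucp1, 68.8% for Cidea and 6.25% for Lep, and it was 59.4% and 47.9% for Ucp1 and Cidea when thinned to 1000 UMIs, 99.0%, 99.0% and 57.3% without thinning, and 53.1%, 41.7% and 1.04% at 2 or more UMIs. Leaving a section out of the V against NV tests left no spread between samples, so that it was not run. With 3 sections and as few as 256643 UMIs in a sum, genes of low count could not be compared.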
